A study of Mus musculus with 4 samples.

Results

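The genes described here are 30 genes of fatty acid oxidation and of the programme run by the PPAR nuclear receptors, measured by single-cell RNA-seq in the mouse pituitary gland. They were chosen as a list of symbols, and all 30 were found, each as 1 gene, among the 32285 genes of the count matrices. The comparison is between mice kept for 12 weeks on a high-fat diet (HFD) and mice kept for 12 weeks on a control diet (CTRL). Both groups were wild-type C57BL/6J males, and each diet had 2 libraries, HFD 1 and HFD 2 against CTRL 1 and CTRL 2. The age of the mice and the number of glands in a library are not given in the labels used here. Nothing in them says that the libraries of 1 diet came from different animals, so p-values measure only the spread between these libraries, which may be technical.

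Cells burn fatty acids inside mitochondria. A long-chain fatty acid is first joined to coenzyme A, is carried across the mitochondrial membranes as a carnitine ester, and is then shortened in repeated rounds of dehydrogenation, hydration, a further dehydrogenation and thiolysis. The electrons of the first step leave through the electron transfer flavoprotein. The receptor PPARα, with its relatives PPARδ and PPARγ, binds fatty acids and switches on many of these genes, and Pdk4, Acot1 and Cpt1a are classical PPARα targets in mouse liver. The pituitary, the hormone gland below the brain, holds several endocrine cell types, each named for its hormone, the stem cells that can renew them, and vascular, immune and connective tissue cells.

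The libraries held 74758237 UMIs (unique molecular identifiers, each standing for 1 captured RNA molecule) in HFD 1 and 97223297 in HFD 2, against 92818116 in CTRL 1 and 101903367 in CTRL 2. Many barcodes occurred in more than 1 library. HFD 1 shared 3110 barcodes with HFD 2 in which the HFD 1 copy was the poorer, and 1018 such barcodes with CTRL 2. The HFD 1 copy had a median of 0.0558 of the UMIs of its HFD 2 twin and 0.0287 of those of its CTRL 2 twin. Of these copies 1544 and 290 would have passed the cell filters. Those in HFD 1 made up 70.8% of its gonadotrope-like, 57.5% of its melanotrope-like, 51.7% of its stem-like and 50.2% of its thyrotrope-like barcodes, but 13.3% of its lactotrope-like and 7.46% of its somatotrope-like barcodes. In UMIs they were 13.9% of the gonadotrope-like and 1.49% of the lactotrope-like material of HFD 1. Copies with less than 0.1 of the UMIs of their richer twin were set aside. Each call within the list of genes described here that is lost when they are kept is named beside the result. For calls of genes outside the list, whether each holds with the copies kept is not given.

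After this, 5874 and 6928 cells were kept in HFD 1 and HFD 2, against 4350 and 6828 in CTRL 1 and CTRL 2. Cells were grouped by their RNA and named from marker genes, with "-like" in each name because no other evidence was used. There were 11 classes with at least 30 cells in every library, namely somatotrope-like (8595 cells), lactotrope-like (5151), corticotrope-like (2324), melanotrope-like (1700), stem-like (1332), endothelial-like (1211), gonadotrope-like (1004), thyrotrope-like (611), macrophage-like (541), mesenchymal-like (463) and T or NK cell-like cells (292). The last of these was also led by Igkc, a gene of B cells. Defining genes were high where the names require them. Fshb, which encodes part of follicle-stimulating hormone, had 15233 and 15052 CPM in the HFD libraries and 13321 and 11525 CPM in the CTRL libraries in gonadotrope-like cells, while the thyrotrope marker Sox14 was low in thyrotrope-like cells at 1.20 and 2.68 CPM in the HFD libraries and 4.95 and 2.26 CPM in the CTRL libraries. Values below are CPM, the UMIs of a gene per 1000000 UMIs of the class in that library, and fitted log2 differences are HFD over CTRL. Levels of different genes are not compared, because the counts are not corrected for transcript length.

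Levels were ranked among the 11 tested classes alone, and stem-like cells led for more genes than any other of them. Of the 30 genes, 13 had their highest mean CPM over the 4 libraries in stem-like cells and 5 in corticotrope-like cells. Gonadotrope-like, macrophage-like and mesenchymal-like cells held the highest mean of 3 genes each, and lactotrope-like, melanotrope-like and T or NK cell-like cells that of 1 each. For 6 of the 13, namely Acot1, Pdk4, Acadm, Eci2, Hadh and Ppara, the lowest of the 4 stem-like libraries lay above every library of the other tested classes. These levels are a description without a test, since the cells were grouped by the same RNA.

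Smaller classes, which were not tested, held some of these genes at similar or higher levels. Of Acot1 the 181 pituicyte-like cells of the posterior lobe had 94.8 and 124 CPM in the HFD libraries and 95.4 and 87.9 CPM in the CTRL libraries, and HFD 2 lay above the lowest stem-like library while the other 3 lay below it. Of Acaa2 they had 261 and 315 CPM in the HFD libraries and 196 and 283 CPM in the CTRL libraries, more than every stem-like library. Over the 4 libraries together they also had 66.5 CPM of Cpt1a, 109 CPM of Eci1 and 32.4 CPM of Acot2, above the stem-like means of 54.9, 64.2 and 16.3 CPM. The 27 Schwann or glia-like cells came from HFD 2 (20 cells) and CTRL 2 (7 cells), and had 148 CPM of Acot1 (31 UMIs) and 119 CPM of Hadh (25 UMIs) over both libraries. Ppara had 11.8 CPM in the 34 pericyte-like cells of CTRL 2, above the lowest stem-like library, from 2 UMIs. With these few cells counted, the stem-like libraries of Acot1, Hadh and Ppara did not all lie above every other library.

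**Figure D1:**
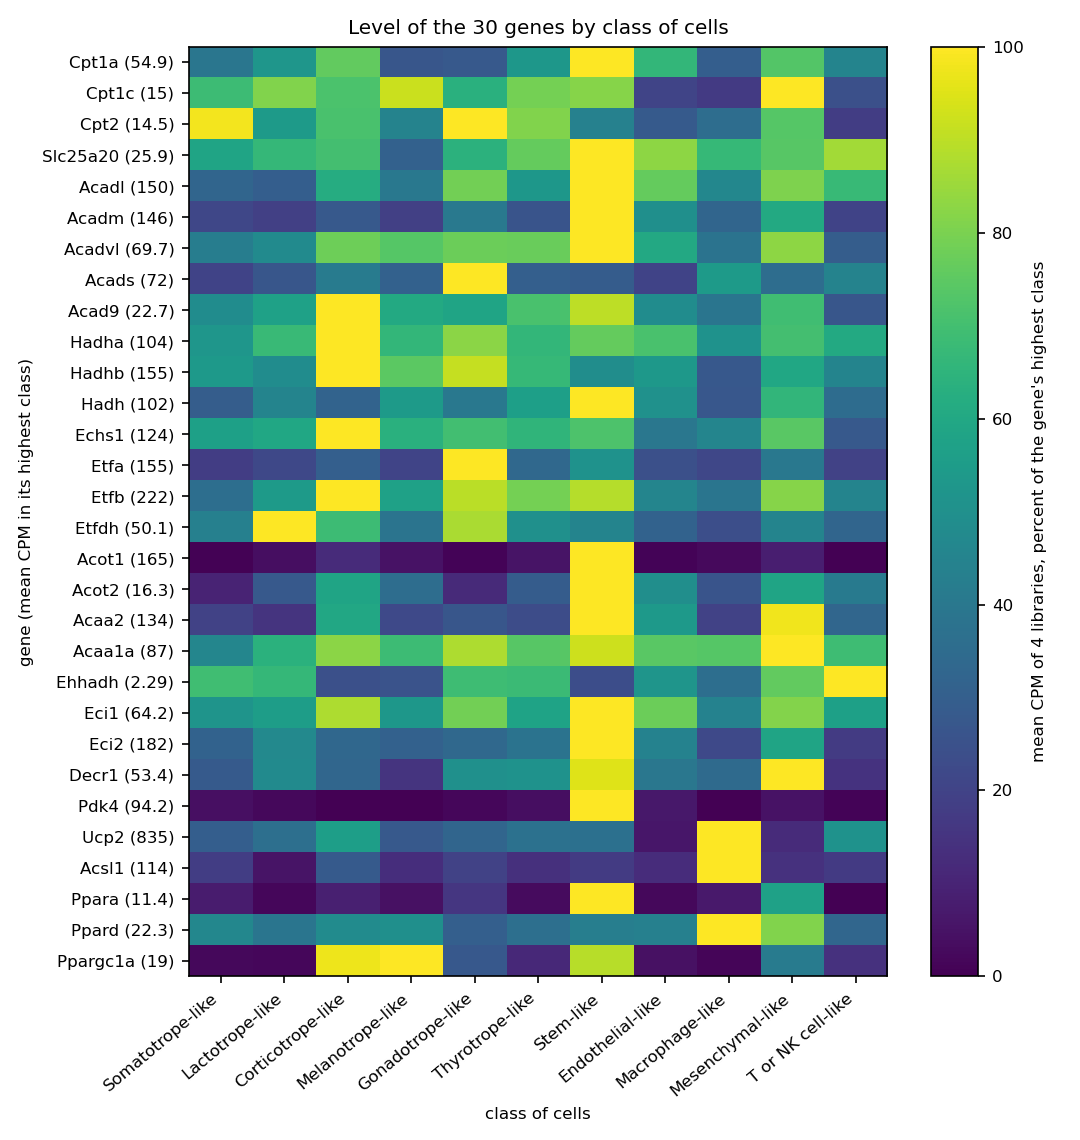
Mean CPM over the 4 libraries of each of the 30 genes (rows) in each of the 11 classes (columns), drawn relative to the class in which the gene is highest. Acot1 and Pdk4 stand out in the stem-like column, with means of 165 and 94.2 CPM there, and Ucp2 and Acsl1 in the macrophage-like column, with 835 and 114 CPM.

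In stem-like cells Acot1, the cytosolic thioesterase that splits long-chain acyl-coenzyme A, had 169.8 and 235 CPM in HFD 1 and HFD 2, against 138 and 116 CPM in CTRL 1 and CTRL 2. Among the tested classes corticotrope-like cells came next with 16.1 and 20.4 CPM in the HFD libraries and 21.9 and 22.9 CPM in the CTRL libraries, well below the pituicyte-like level given above. Acot1 had no UMI in T or NK cell-like cells, whose 1432789 UMIs over the 4 libraries allow a level of up to 2.09 CPM, counting error only. Its mitochondrial relative Acot2 was also highest in stem-like cells among the tested classes, with 21.0 and 15.6 CPM in the HFD libraries and 16.1 and 12.5 CPM in the CTRL libraries. Acot1 and Acot2 are near copies of each other, so reads could have been divided wrongly between them during counting.

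Pdk4, the kinase that switches off pyruvate dehydrogenase and so spares glucose, was highest in the same cells. Its level in stem-like cells was 76.7 and 142 CPM in HFD 1 and HFD 2, against 61.0 and 96.9 CPM in CTRL 1 and CTRL 2. Endothelial-like cells came next among the tested classes with a mean of 6.21 CPM over the 4 libraries, followed by mesenchymal-like cells with 4.57 CPM. Macrophage-like cells had no Pdk4 UMI, where 3758217 UMIs allow up to 0.798 CPM.

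Within the stem-like class the level of both genes differed between its clusters. In the cluster led by Krt17, Lcn2 and Aldh1a2, Pdk4 had 90.6 and 145 CPM in the HFD libraries and 66.2 and 101 CPM in the CTRL libraries. In the smaller cluster, led by Cyp2f2, Gm26632 and Grin2a, it had 12.0 and 26.5 CPM in the HFD libraries and 11.0 and 12.4 CPM in the CTRL libraries. Acot1 had 194 and 240.0 CPM in the HFD libraries and 145 and 118 CPM in the CTRL libraries in the first cluster. In the smaller cluster it had 55.5 and 53.0 CPM in the HFD libraries and 66.2 and 70.5 CPM in the CTRL libraries. In every library both genes were higher in the first cluster than in the smaller one.

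The bases before the start sites of Acot1 and Pdk4 are shown together because these are the PPAR targets with the strongest contrast between the tested classes. Each run is the 250 bases before the start site, 5′ to 3′ on the strand of the gene, as RefSeq gives it on GRCm38.p6. Acot1 is on the plus strand (chr12:84009252-84009501) and Pdk4 on the minus strand (chr6:5496279-5496528).
Acot1: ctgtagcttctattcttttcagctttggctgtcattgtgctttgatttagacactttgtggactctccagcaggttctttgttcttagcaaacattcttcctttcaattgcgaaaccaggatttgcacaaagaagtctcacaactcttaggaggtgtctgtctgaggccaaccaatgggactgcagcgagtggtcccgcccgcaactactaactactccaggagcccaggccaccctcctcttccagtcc
Pdk4: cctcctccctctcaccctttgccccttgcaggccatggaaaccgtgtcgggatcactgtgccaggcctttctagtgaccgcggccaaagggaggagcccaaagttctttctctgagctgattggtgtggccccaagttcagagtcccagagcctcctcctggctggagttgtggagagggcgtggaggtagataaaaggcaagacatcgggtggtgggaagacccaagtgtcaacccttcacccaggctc
Neither window holds the DR1 element that PPAR and its partner RXR bind, searched as AGGTCANAGGTCA on both strands with at most 2 mismatches. This says only that these letters are not in these windows.

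Ppara, the gene of PPARα, was low and also highest in stem-like cells. There it had 13.8 and 10.3 CPM in HFD 1 and HFD 2, against 10.9 and 10.5 CPM in CTRL 1 and CTRL 2, with overlap. Mesenchymal-like cells followed with 3.95 and 5.93 CPM in the HFD libraries and 9.85 and 6.28 CPM in the CTRL libraries, and gonadotrope-like cells, the class after them, averaged 1.79 CPM. Ppard, the gene of PPARδ, ranged from a mean of 6.80 CPM in gonadotrope-like to 22.3 CPM in macrophage-like cells. Ppargc1a, the coactivator that drives mitochondrial gene expression, divided the endocrine cells. Its mean was 19.0 CPM in melanotrope-like and 18.5 CPM in corticotrope-like cells, the classes that process the hormone precursor Pomc, and 0.384 CPM in somatotrope-like and 0.335 CPM in lactotrope-like cells.

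**Figure D2:**
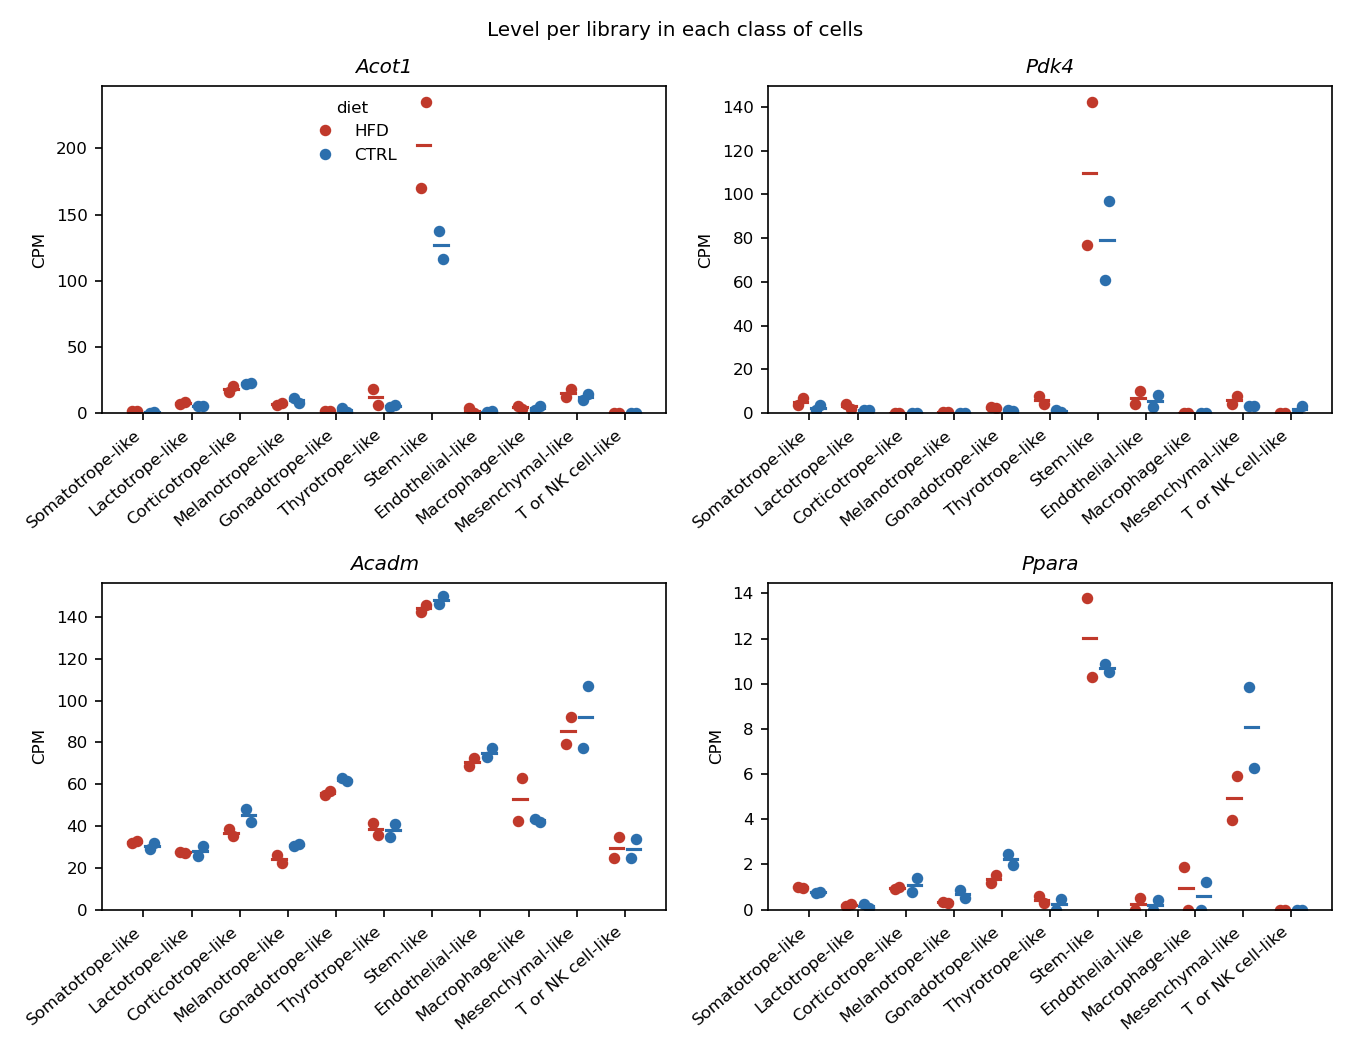
CPM of Acot1, Pdk4, Acadm and Ppara in the 11 classes, with 1 point per library, HFD left of CTRL in each class. The stem-like points of Acot1, Pdk4, Acadm and Ppara lie above the points of the other classes drawn, and within stem-like cells the diets overlap for Pdk4 and Ppara.

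The enzymes of the oxidation cycle followed several patterns. Acadm, the medium-chain acyl-coenzyme A dehydrogenase, had 142 and 146 CPM in the HFD libraries and 146 and 150.1 CPM in the CTRL libraries of stem-like cells, and a mean of 27.6 CPM in lactotrope-like and 31.3 CPM in somatotrope-like cells. Acadl, Acadvl, Hadh, Eci1, Eci2 and Acaa2 also had their highest mean in stem-like cells among the tested classes. So did Cpt1a (54.9 CPM), the outer-membrane carnitine palmitoyltransferase that gates the entry of fatty acids, and Slc25a20 (25.9 CPM), the carrier that exchanges acylcarnitine for carnitine. Cpt2, which reverses the carnitine step inside the mitochondrion, averaged 14.5 CPM in gonadotrope-like, 14.3 CPM in somatotrope-like and 6.36 CPM in stem-like cells, and so did not share the pattern of Cpt1a.

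Gonadotrope-like cells led in Acads (mean 72.0 CPM), the short-chain dehydrogenase, and in Etfa (155 CPM), the alpha subunit of the electron transfer flavoprotein. The next classes were macrophage-like cells at 39.4 CPM for Acads and stem-like cells at 79.3 CPM for Etfa, and no library of another tested class reached the lowest gonadotrope-like one for either gene. The beta subunit Etfb had means of 222 CPM in corticotrope-like, 199 CPM in gonadotrope-like and 197 CPM in stem-like cells. Etfdh, which passes the electrons on to ubiquinone, was highest in lactotrope-like cells at 50.1 CPM. Corticotrope-like cells led in Hadha (104 CPM) and Hadhb (155 CPM), the subunits of the mitochondrial trifunctional protein, in Echs1 (124 CPM), the short-chain enoyl-coenzyme A hydratase, and in Acad9 (22.7 CPM), a dehydrogenase that also helps assemble respiratory complex I.

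Ucp2, a carrier of the inner mitochondrial membrane, and Acsl1, which joins long-chain fatty acids to coenzyme A, were highest in macrophage-like cells among the tested classes. Ucp2 had 864 and 948 CPM in the HFD libraries and 709 and 817 CPM in the CTRL libraries there. Acsl1 had 139.9 and 105 CPM in the HFD libraries and 153 and 59.0 CPM in the CTRL libraries, and a mean of 32.2 CPM in corticotrope-like cells, the class after it. Mesenchymal-like cells led in Cpt1c (15.0 CPM), a relative of Cpt1a found mainly in neurons, in Decr1 (53.4 CPM), which reduces double bonds, and in Acaa1a (87.0 CPM), a peroxisomal thiolase with a near copy, Acaa1b. Ehhadh, the peroxisomal bifunctional enzyme, stayed between 0.546 CPM in stem-like and 2.29 CPM in T or NK cell-like cells.

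Diet was tested in each class by edgeR's quasi-likelihood test on UMIs summed per library, with Benjamini-Hochberg adjustment over all genes tested in that class, and an adjusted p under 0.05 counts as changed. A low-count filter left 282 of the 330 pairs of a gene and a class. Of these, 3 passed, all higher after HFD, namely Etfb and Hadhb in gonadotrope-like cells and Cpt1a in lactotrope-like cells. Over all genes and the same classes, 0.2% of 121720 pairs passed as higher and 0.187% as lower. In the whole gland none of the 30 genes passed by edgeR, against 0.0108% of all genes, and 3 were higher at an unadjusted p under 0.05, against 5.01% of all genes, and the Wald test of DESeq2 passed none either.

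Gonadotrope-like cells, which make luteinizing and follicle-stimulating hormone, held 2 of the 3 changes. In the mm10 annotation Etfb lies at chr7:43444083-43457800 and Hadhb at chr5:30155248-30184593, both on the plus strand. Etfb had 214 and 223 CPM in HFD 1 and HFD 2, against 186 and 173 CPM in CTRL 1 and CTRL 2. Both HFD libraries lay above both CTRL libraries, with a log2 difference of 0.42 ± 0.08 (SE, adjusted p = 0.0388 by edgeR). Hadhb, the thiolase subunit of the trifunctional protein, had 162 and 153 CPM in the HFD libraries and 133 and 120.1 CPM in the CTRL libraries. The diets did not overlap here either, and the log2 difference was 0.45 ± 0.09 (SE, adjusted p = 0.0452 by edgeR). Among the 29 genes of the list tested in this class 2 were called higher, against 0.919% of all 12737 genes, of which 1.68% were called in either direction.

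The partner subunits of these proteins did not pass. Etfa had 189 and 153 CPM in the HFD libraries and 153 and 126 CPM in the CTRL libraries, with HFD 2 only just above CTRL 1 (log2 0.42 ± 0.12 SE, adjusted p = 0.106 by edgeR). Hadha, the hydratase and dehydrogenase subunit, had 80.3 and 77.9 CPM in the HFD libraries and 87.0 and 100.05 CPM in the CTRL libraries (log2 -0.11, adjusted p = 0.573 by edgeR). Hadha and Hadhb are transcribed away from each other on chromosome 5, with RefSeq start sites 273 bases apart. The 250 bases before the Hadhb start, on the plus strand at chr5:30155003-30155252 of GRCm38.p6, are shown because they span most of the region between these start sites.
Hadhb: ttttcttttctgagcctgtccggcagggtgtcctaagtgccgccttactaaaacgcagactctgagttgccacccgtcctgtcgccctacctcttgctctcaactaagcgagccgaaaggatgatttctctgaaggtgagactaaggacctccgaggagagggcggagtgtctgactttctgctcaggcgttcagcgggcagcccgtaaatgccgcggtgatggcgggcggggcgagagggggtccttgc
No DR1 element, ERR element (TNAAGGTCA) or cyclic AMP element (TGACGTCA) was found in this window, the last 2 searched without mismatches on both strands.

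Further enzymes of the cycle were higher in both HFD libraries of gonadotrope-like cells without passing. Acaa2, the mitochondrial thiolase, had 44.4 and 39.1 CPM in the HFD libraries and 29.8 and 30.7 CPM in the CTRL libraries (log2 0.59 ± 0.13 SE, adjusted p = 0.0547 by edgeR). Acads had 81.0 and 75.0 CPM in the HFD libraries and 62.3 and 69.7 CPM in the CTRL libraries (log2 0.37, adjusted p = 0.0994 by edgeR), and Echs1 had 96.2 and 89.2 CPM in the HFD libraries and 85.0 and 75.1 CPM in the CTRL libraries (log2 0.34, adjusted p = 0.106 by edgeR). Both HFD libraries lay higher for 14 of the 29 genes, against 14.6% of all genes. In all, 11 of the 29 had an unadjusted p under 0.05, each of them higher after HFD, against 12.0% of all genes tested in the class that were higher at that limit. The median log2 difference of the 29 genes was 0.16, against 0.003 for all genes. The scaling used in the fit moved log2 differences of this class up by a median of 0.13 relative to the ratios of CPM. The median ratio of CPM was 0.03 on the log2 scale for the list, against -0.13 for all genes.

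Both HFD libraries of gonadotrope-like cells lay lower for 7 of the 29 genes, against 40.8% of all genes. Acsl1 had 19.6 and 18.9 CPM in the HFD libraries and 25.5 and 25.8 CPM in the CTRL libraries (log2 -0.29, adjusted p = 0.247 by edgeR). Cpt1a had 13.8 and 13.5 CPM in the HFD libraries and 16.4 and 17.4 CPM in the CTRL libraries (log2 -0.18, adjusted p = 0.562 by edgeR). Neither passed, so Cpt1a, called in lactotrope-like cells, was not called here.

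**Figure D3:**
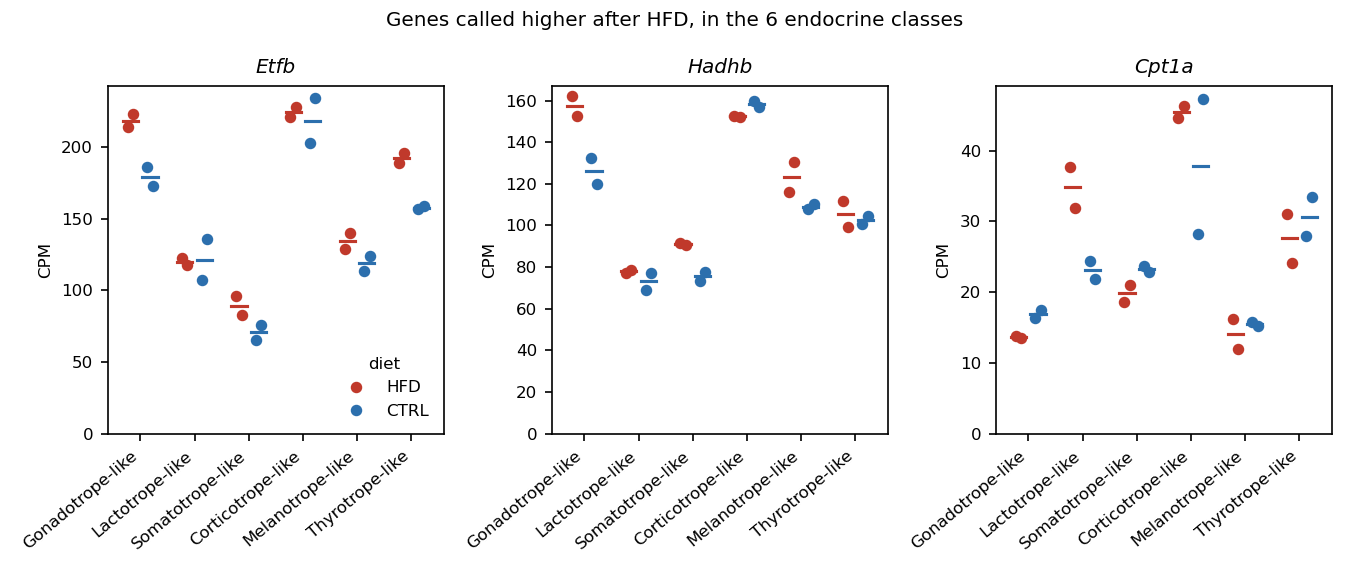
CPM of Etfb, Hadhb and Cpt1a in the 6 endocrine classes, with 1 point per library, HFD left of CTRL in each class. In gonadotrope-like cells the HFD points of Etfb (214 and 223 CPM) and Hadhb (162 and 153 CPM) lie above the CTRL points, as do those of Cpt1a in lactotrope-like cells (37.7 and 31.9 CPM).

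Echs1 and Etfa carry the DR1 matches found among the promoter windows of the list, so their windows are shown with the match in capitals. RefSeq windows were at hand for 27 of the 30 genes, all but Acad9, Decr1 and Acaa2. A DR1 element with at most 2 mismatches was in 3.24% of all 32851 windows and in those of 2 of the 27 genes. Both genes are on the minus strand, Echs1 at chr7:140116422-140116671 and Etfa at chr9:55512244-55512493 of GRCm38.p6. The match starts 83 bases before the start site in Echs1 and 77 bases before it in Etfa, where it reads on the opposite strand.
Echs1: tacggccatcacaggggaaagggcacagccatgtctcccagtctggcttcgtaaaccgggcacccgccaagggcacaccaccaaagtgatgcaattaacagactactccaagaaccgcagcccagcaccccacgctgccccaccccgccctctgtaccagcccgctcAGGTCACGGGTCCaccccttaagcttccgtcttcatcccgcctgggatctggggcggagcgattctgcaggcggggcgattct
Etfa: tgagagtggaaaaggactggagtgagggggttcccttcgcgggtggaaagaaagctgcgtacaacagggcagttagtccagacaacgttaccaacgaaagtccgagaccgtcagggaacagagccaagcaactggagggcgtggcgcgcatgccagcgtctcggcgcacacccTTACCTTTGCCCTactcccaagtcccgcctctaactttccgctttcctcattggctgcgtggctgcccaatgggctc
No window of the 27 genes held the ERR element or the cyclic AMP element, which were in 1.14% and 1.55% of all windows. A match is a likeness of letters and is not shown to be a binding site.

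Other RNA differed between the diets in gonadotrope-like cells as well. The 22 immediate-early genes, which respond within minutes to stimulation or stress of a cell, summed to 3487 and 3546 CPM in the HFD libraries and 5594 and 5475 CPM in the CTRL libraries, and 12 of them passed, all lower after HFD. Of 8 heat shock genes 3 passed, also lower, and their sum was 3090.0 and 3195 CPM in the HFD libraries and 4508 and 3912 CPM in the CTRL libraries. Summed markers of other cell types differed between libraries too. The 5 lactotrope markers summed to 953 and 723 CPM in the HFD libraries and 3999 and 3848 CPM in the CTRL libraries, and the 4 somatotrope markers to 1684 and 2766 CPM in the HFD libraries and 18764 and 2587 CPM in the CTRL libraries. The 6 corticotrope markers summed to 877 and 1313 CPM in the HFD libraries and 1819 and 2735 CPM in the CTRL libraries, and the 5 red blood cell markers to 42.3 and 1449 CPM in the HFD libraries and 34.2 and 24.4 CPM in the CTRL libraries. The 7 gonadotrope markers of the class itself summed to 205203 and 198505 CPM in the HFD libraries and 150263 and 168065 CPM in the CTRL libraries. Most of this sum was Cga, with 186127 and 178784 CPM in the HFD libraries and 130980 and 151199 CPM in the CTRL libraries. Cga and Fshb were higher in both HFD libraries, but Lhb, Gnrhr and Foxp2 were lower in both. Nr5a1 and Tgfbr3l overlapped between the diets. CTRL 1 was the highest library for somatotrope markers and HFD 2 for red blood cell markers. The part of these differences in the results on Etfb and Hadhb was not tested. With the poorer copies of shared barcodes kept, neither gene passed, with log2 0.42 (edgeR adjusted p = 0.0544) for Etfb and log2 0.42 (edgeR adjusted p = 0.0599) for Hadhb. Over all genes of this class 70 were called with the copies kept, against 214 with them set aside. Leaving out CTRL 2 put both above the limit, Etfb at an adjusted p of 0.094 and Hadhb at 0.106 by edgeR. Leaving out HFD 2 did so for Etfb alone, at 0.064.

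In lactotrope-like cells, which make prolactin, Cpt1a was the gene of the list that changed. It had 37.7 and 31.9 CPM in HFD 1 and HFD 2, against 24.3 and 21.8 CPM in CTRL 1 and CTRL 2. Each HFD library lay above both CTRL libraries, and the log2 difference was 0.54 (SE 0.12) at an edgeR adjusted p of 0.04997, just under the limit. It was 1 of 28 genes of the list tested, against 0.625% of 13761 genes called higher and 1.4% called in either direction in the class. In the cluster led by Prl and Gal, Cpt1a had 37.8 and 30.2 CPM in the HFD libraries and 25.4 and 22.6 CPM in the CTRL libraries. In the cluster led by Prl and Cilp it had 37.7 and 33.6 CPM in the HFD libraries and 23.1 and 20.6 CPM in the CTRL libraries, so the diets did not overlap in either. Leaving out CTRL 1 put Cpt1a above the limit (log2 0.64, adjusted p = 0.0876 by edgeR), as did leaving out CTRL 2 (log2 0.43, adjusted p = 0.359 by edgeR) or HFD 1 (log2 0.46, adjusted p = 0.219 by edgeR). The Wald test of DESeq2 did not call it (adjusted p = 0.108).

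The sequence before the RefSeq start site of Cpt1a, on the plus strand at chr19:3323051-3323300 of GRCm38.p6, is given because this gene carries the change. It holds none of the 3 elements searched.
Cpt1a: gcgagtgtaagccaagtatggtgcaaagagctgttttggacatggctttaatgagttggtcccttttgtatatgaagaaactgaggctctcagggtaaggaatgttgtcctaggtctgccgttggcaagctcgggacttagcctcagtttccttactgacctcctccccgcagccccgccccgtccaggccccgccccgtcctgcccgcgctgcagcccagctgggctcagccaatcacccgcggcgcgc

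Cpt1a lay the other way in somatotrope-like cells, which make growth hormone. It had 18.6 and 21.0 CPM in HFD 1 and HFD 2, against 23.6 and 22.9 CPM in CTRL 1 and CTRL 2. Both HFD libraries lay below both CTRL libraries, with a log2 difference of -0.38 (SE 0.12) that did not pass (edgeR adjusted p = 0.178). Without HFD 2 it passed as lower, at -0.51 (edgeR adjusted p = 0.0324). In corticotrope-like cells Cpt1a had 44.6 and 46.4 CPM in the HFD libraries and 28.2 and 47.3 CPM in the CTRL libraries, so that CTRL 1 alone was low.

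Other genes of the list in lactotrope-like cells did not pass. Acadl, the long-chain dehydrogenase, had 48.8 and 53.0 CPM in the HFD libraries and 36.3 and 40.9 CPM in the CTRL libraries (log2 0.34, adjusted p = 0.195 by edgeR). Etfdh had 49.2 and 42.0 CPM in the HFD libraries and 54.7 and 54.6 CPM in the CTRL libraries (log2 -0.32, adjusted p = 0.196 by edgeR). For both the diets did not overlap, in opposite directions. Both HFD libraries lay higher for 9 of the 28 genes, against 27.5% of all genes. Hadhb and Etfb, the genes called in gonadotrope-like cells, had log2 differences of 0.04 and -0.07 here. At an unadjusted p under 0.05, 6 of the 28 were higher and 2 lower, against 5.94% of all genes higher.

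In lactotrope-like cells 1 of the 22 immediate-early genes, Fosb, passed as lower after HFD (log2 -0.84, adjusted p = 0.00174 by edgeR), and 1 of the 8 heat shock genes, Hspb1, passed as higher (log2 0.71, adjusted p = 0.0301 by edgeR). The immediate-early genes together summed to 6482 and 5787 CPM in the HFD libraries and 6853 and 7525 CPM in the CTRL libraries, lower in both HFD libraries. The 5 red blood cell markers summed to 83.0 and 85.5 CPM in the HFD libraries and 58.7 and 31.9 CPM in the CTRL libraries, higher in both HFD libraries. The 5 cycling markers summed to 8.44 and 2.90 CPM in the HFD libraries and 23.2 and 15.5 CPM in the CTRL libraries and the 6 pituicyte markers to 2.45 and 2.82 CPM in the HFD libraries and 7.42 and 12.3 CPM in the CTRL libraries, both lower in the HFD libraries. Markers of T or NK cells were also lower and those of granulocytes higher in both HFD libraries, each with a sum under 1 CPM in every library. The 4 somatotrope markers summed to 3629.8 and 3936 CPM in the HFD libraries and 8153 and 2853 CPM in the CTRL libraries, with overlap. The part of these genes in the Cpt1a difference and in those of Cd36 and Lpl, given further on, was not tested.

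**Figure D4:**
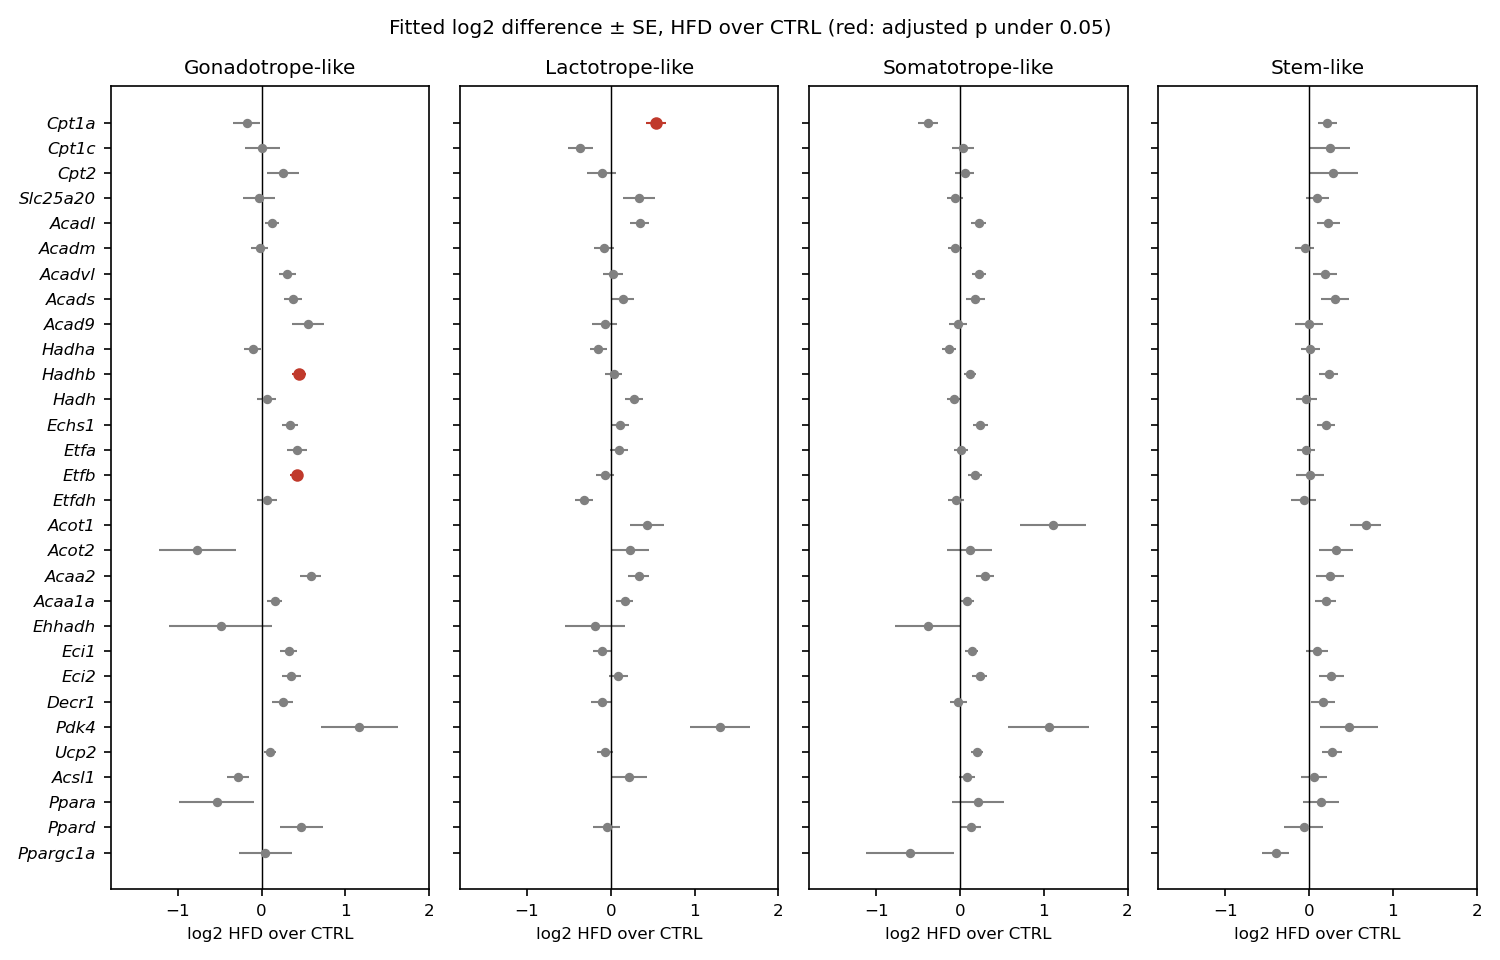
Fitted log2 difference of HFD over CTRL with its SE for each gene of the list that was tested, in gonadotrope-like, lactotrope-like, somatotrope-like and stem-like cells, with genes at an edgeR adjusted p under 0.05 in red. Etfb (0.42) and Hadhb (0.45) are red in gonadotrope-like cells and Cpt1a (0.54) in lactotrope-like cells, while Cpt1a lies at -0.38 in somatotrope-like cells.

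In somatotrope-like cells none of the 30 genes passed by edgeR, where 0.0686% of 14571 genes were called in either direction, and the Wald test of DESeq2 called none of the 30. At an unadjusted p under 0.05, 7 were higher and 1, Cpt1a, lower, while 7.97% of all genes tested were higher at that limit. Acadvl, the very-long-chain dehydrogenase, had 34.6 and 32.1 CPM in the HFD libraries and 24.0 and 27.1 CPM in the CTRL libraries (log2 0.23, adjusted p = 0.217 by edgeR). Acaa2 had 30.3 and 30.7 CPM in the HFD libraries and 19.8 and 25.0 CPM in the CTRL libraries (log2 0.30, adjusted p = 0.21 by edgeR). For 20 of the 30 genes both HFD libraries had the higher CPM, but so did 45.0% of all genes tested, and the scaling used in the fit shifted log2 differences of this class by a median of -0.15. The makeup of the class differed too. The cluster led by Scnn1b held 1234 and 1324 cells in the HFD libraries and 94 and 114 in the CTRL libraries. The immediate-early genes summed to 5065 and 5994 CPM in the HFD libraries and 8386 and 12122 CPM in the CTRL libraries, with 2 of 22, Btg2 and Klf4, passing as lower. The 5 lactotrope markers summed to 483 and 503 CPM in the HFD libraries and 2117 and 839 CPM in the CTRL libraries, and the 5 red blood cell markers to 73.9 and 86.0 CPM in the HFD libraries and 46.3 and 28.0 CPM in the CTRL libraries. In the largest somatotrope-like cluster Cpt1a had 18.1 and 22.1 CPM in the HFD libraries and 23.6 and 26.0 CPM in the CTRL libraries, and the part of these shifts in its difference was not tested.

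Stem-like cells gave no call in the 29 genes tested by edgeR or by the Wald test of DESeq2. At an unadjusted p under 0.05, 1 was higher and 1 lower, against 3.36% of all genes higher, and 0.00759% of all genes passed in either direction. The smallest p was that of Acot1, whose values in the 4 libraries are given above. Both HFD libraries were higher, with a log2 difference of 0.67 ± 0.18 (SE, unadjusted p = 0.00911, adjusted p = 0.575 by edgeR). By the cluster values above, Acot1 was higher in both HFD libraries of the larger stem-like cluster and lower in both of the smaller. The smaller held 113 and 45 cells in HFD 1 and HFD 2, against 71 and 53 in CTRL 1 and CTRL 2. The larger held 191 and 327 cells in the HFD libraries and 221 and 311 in the CTRL libraries. The part of this makeup in the differences was not tested. Pdk4 overlapped between the diets, with HFD 1 below CTRL 2 (log2 0.48 ± 0.35 SE, adjusted p = 0.786 by edgeR), and without HFD 2 its log2 difference was -0.09. Without the low-count filter both genes passed, Acot1 at an adjusted p of 0.000608 and Pdk4 at 0.0407 by edgeR. Dropping that filter also raised the calls over all genes in stem-like cells to 541, against 1 with it.

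Several other genes that are highest in stem-like cells among the tested classes were higher in both HFD libraries there without passing. Acadl had 152 and 172 CPM in the HFD libraries and 129.6 and 146 CPM in the CTRL libraries (log2 0.23, adjusted p = 0.752 by edgeR). Acaa2 had 139 and 153 CPM in the HFD libraries and 108 and 136 CPM in the CTRL libraries (log2 0.25, adjusted p = 0.766 by edgeR). Cpt1a had 57.8 and 60.5 CPM in the HFD libraries and 52.5 and 48.7 CPM in the CTRL libraries (log2 0.22, adjusted p = 0.724 by edgeR). Acadm had a log2 difference of -0.05 and Ppara one of 0.14. The list had a median log2 difference of 0.19 in these cells, and both HFD libraries lay higher for 14 of the 29 genes, against 20.3% of all genes tested. The 4 somatotrope markers summed to 2887 and 2199 CPM in the HFD libraries and 6737 and 2899 CPM in the CTRL libraries of stem-like cells, and the 5 lactotrope markers to 977 and 473 CPM in the HFD libraries and 4242 and 711 CPM in the CTRL libraries. CTRL 1 was the highest library for both. Other sums set the diets further apart. The 6 corticotrope markers summed to 403 and 409 CPM in the HFD libraries and 2195 and 991 CPM in the CTRL libraries and the 7 gonadotrope markers to 276 and 289 CPM in the HFD libraries and 1436 and 741 CPM in the CTRL libraries. The sums of melanotrope and thyrotrope markers were lower in both HFD libraries too, but they are not separate from these. The melanotrope list shares Pomc and Tbx19 with the corticotrope list, and the thyrotrope list shares Cga with the gonadotrope list. Markers of macrophages and of T or NK cells were also lower in both HFD libraries. The 8 stem cell markers of the class itself summed to 8056 and 8309 CPM in the HFD libraries and 6355 and 6898 CPM in the CTRL libraries. They did not move together. Sox2, Aldh3a1, Rbpms and Hes1 were higher in both HFD libraries and Sox9 and Cdh26 lower in both, while Lcn2 and Cyp2f2 overlapped. The part of these markers in the results on stem-like cells was not tested.

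In each of the other tested classes mean Pdk4 was under 10% of its mean in stem-like cells, so that RNA released by other cells could make up part of it, which was not tested. It was higher in both HFD libraries of several classes. In thyrotrope-like cells it had 7.77 and 4.28 CPM in the HFD libraries and 1.24 and 0.452 CPM in the CTRL libraries (log2 2.58 ± 0.64 SE, adjusted p = 0.242 by edgeR). In lactotrope-like cells it had 3.99 and 2.06 CPM in the HFD libraries and 1.16 and 1.17 CPM in the CTRL libraries (log2 1.30 ± 0.36 SE, adjusted p = 0.114 by edgeR). In gonadotrope-like cells it had 2.57 and 2.32 CPM in the HFD libraries and 1.30 and 0.991 CPM in the CTRL libraries (log2 1.17 ± 0.45 SE, adjusted p = 0.173 by edgeR). Much of this came from the smaller gonadotrope-like cluster, of 2 and 2 cells in the HFD libraries and 10 and 3 in the CTRL libraries, where Pdk4 had 96.4 and 202 CPM in the HFD libraries and 13.6 and 17.6 CPM in the CTRL libraries. In the main gonadotrope-like cluster it had 0.950 and 0.889 CPM in the HFD libraries and 0.313 and 0.608 CPM in the CTRL libraries, still without overlap. None of these differences passed.

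Acot1 was low in the other tested classes, unlike in pituicyte-like cells, and higher in both HFD libraries of somatotrope-like cells, at 1.26 and 1.37 CPM in the HFD libraries and 0.357 and 0.751 CPM in the CTRL libraries (log2 1.11, adjusted p = 0.212 by edgeR). In thyrotrope-like cells it had 17.9 and 6.15 CPM in the HFD libraries and 4.64 and 5.88 CPM in the CTRL libraries (log2 1.05, adjusted p = 0.777 by edgeR). Here HFD 1 stood well above the other libraries. In both of these classes mean Acot1 was under 10% of its mean in stem-like cells. RNA released by other cells could thus make up part of it, which was not tested. Somatotrope-like cells held 34 and 45 Acot1 UMIs in the HFD libraries and 12 and 23 in the CTRL libraries. Thyrotrope-like cells held 30 and 23 in the HFD libraries and 15 and 13 in the CTRL libraries.

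The remaining classes gave no call within the list by edgeR, and the genes of smallest p were these. In melanotrope-like cells of the intermediate lobe Ppargc1a had 29.1 and 19.8 CPM in the HFD libraries and 15.2 and 11.9 CPM in the CTRL libraries, a log2 difference of 0.89 ± 0.23 (SE, adjusted p = 0.841 by edgeR). In stem-like cells the same gene lay the other way, with 14.1 and 15.3 CPM in the HFD libraries and 19.9 and 18.7 CPM in the CTRL libraries (log2 -0.40, adjusted p = 0.666 by edgeR). In macrophage-like cells Slc25a20 had 38.8 and 16.8 CPM in the HFD libraries and 9.15 and 4.92 CPM in the CTRL libraries, a log2 difference of 2.00 ± 0.55 (SE, adjusted p = 0.772 by edgeR). The diets did not overlap in these 3 cases. The Slc25a20 values rested on 41 and 17 UMIs in HFD 1 and HFD 2, against 8 and 4 in CTRL 1 and CTRL 2. In macrophage-like cells 5 granulocyte markers summed to 1816 and 49.3 CPM in the HFD libraries and 32.0 and 28.3 CPM in the CTRL libraries. The 5 red blood cell markers summed to 6958 and 330 CPM in the HFD libraries and 108 and 45.5 CPM in the CTRL libraries. HFD 1 was the highest library for both, and their part in the Slc25a20 difference was not tested.

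In 4 further classes the genes of smallest p were these. Ppard had a log2 difference of 0.50 in corticotrope-like cells (adjusted p = 0.521 by edgeR) and of 0.76 in endothelial-like cells (edgeR adjusted p = 1.00). Etfa had one of 0.59 in mesenchymal-like cells (edgeR adjusted p = 0.971), and Hadha one of -0.63 in T or NK cell-like cells (edgeR adjusted p = 0.889). In the classes of their highest level, Ucp2 and Acsl1 had log2 differences of 0.30 (SE 0.16) and 0.23 (SE 0.39) in macrophage-like cells, and Hadha and Hadhb of 0.03 (SE 0.11) and 0.03 (SE 0.10) in corticotrope-like cells, where the HFD libraries of Hadhb were slightly lower in CPM. Acsl1 turned on the CTRL libraries, with a log2 difference of 1.13 without CTRL 1 and of -0.30 without CTRL 2. Few genes of any kind were called in these classes. The share in either direction was 0.223% in corticotrope-like, 0.00779% in melanotrope-like, 0.152% in thyrotrope-like, 0.00991% in endothelial-like and 0.161% in T or NK cell-like cells, and 0 genes were called in macrophage-like and mesenchymal-like cells. At an unadjusted p under 0.05, 5 of 27 genes of the list were higher in thyrotrope-like cells, against 2.99% of all genes. At that limit 1 gene each was higher in melanotrope-like, macrophage-like and mesenchymal-like cells, against 2.77%, 3.18% and 2.49% of all genes. In corticotrope-like, endothelial-like and T or NK cell-like cells 0 were, against 5.5%, 1.4% and 2.68%. The Wald test of DESeq2 called none of the list in these classes.

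Whether diet acted differently on a gene in different classes was tested with the library as a block. None of the 30 genes passed by edgeR, against 0.23% of 16486 genes. At an unadjusted p under 0.05 there were 4, namely Etfa (0.0143), Hadhb (0.034), Cpt1a (0.0351) and Slc25a20 (0.0433), and the lowest edgeR adjusted p was 0.322. The changes in gonadotrope-like and lactotrope-like cells are therefore not shown to differ from those in other classes.

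Other genes of the same pathways were read from lists of mitochondrial oxidation (14 genes), peroxisomal oxidation (17), other PPAR targets and partners (23), ketone bodies (4) and mitochondrial mass (8). Over these lists and the 11 classes, 4 pairs of a gene and a class passed, where 0.388% of 121720 pairs over all genes passed in either direction. In lactotrope-like cells 17 of the 23 PPAR targets and partners were tested. Of these 1 passed as higher and 1 as lower, against 0.625% and 0.77% of all genes tested. Cd36, the fatty acid translocase, had 0.307 and 0.840 CPM in the HFD libraries and 16.2 and 35.1 CPM in the CTRL libraries (log2 -5.53 ± 0.44 SE, adjusted p = 3.9e-05 by edgeR). Lpl, the lipase that frees fatty acids from lipoproteins, had 14.3 and 10.8 CPM in the HFD libraries and 5.09 and 6.00 CPM in the CTRL libraries (log2 1.11 ± 0.18 SE, adjusted p = 0.00945 by edgeR). In this class, then, Cpt1a and Lpl rose and Cd36 fell after HFD, each without overlap of the diets. The 6 endothelial markers summed to 6.82 and 4.81 CPM in the HFD libraries and 10.4 and 5.74 CPM in the CTRL libraries of lactotrope-like cells, with overlap, and the 7 macrophage markers to 6.13 and 3.59 CPM in the HFD libraries and 6.31 and 2.43 CPM in the CTRL libraries, also with overlap.

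In gonadotrope-like cells 1 of 13 tested genes of mitochondrial oxidation passed, as lower, namely Acsl3, another acyl-coenzyme A synthetase. It had 19.6 and 20.9 CPM in the HFD libraries and 39.1 and 32.7 CPM in the CTRL libraries (log2 -0.69 ± 0.14 SE, adjusted p = 0.0452 by edgeR). Of 16 tested PPAR targets and partners 1 passed, also lower, the lipoprotein receptor Vldlr. It had 56.1 and 57.2 CPM in the HFD libraries and 88.9 and 119.7 CPM in the CTRL libraries (log2 -0.74 ± 0.14 SE, adjusted p = 0.0406 by edgeR). Of all 12737 genes tested in gonadotrope-like cells 0.762% were called lower. Whether the calls of Acsl3 and Vldlr hold with the poorer copies of shared barcodes kept is not given here. The 8 genes of mitochondrial mass summed to 996 and 1015 CPM in the HFD libraries and 1019 and 995 CPM in the CTRL libraries of this class, with overlap. Plin2, a coat protein of lipid droplets and a PPAR target, was higher in both HFD libraries of gonadotrope-like, lactotrope-like and stem-like cells without passing, with log2 differences of 0.90, 0.36 and 0.43 (edgeR adjusted p = 0.0722, 0.504 and 0.61).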

How the data were processed

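Glands were dissociated with collagenase and trypsin and libraries made with 10x Chromium 3′ chemistry, per the labels. The deposited matrices hold raw UMI counts for each gene in each barcode, and Cell Ranger 6.1.2, Seurat 4.3 and build mm10 are named in the submitters' processing notes. Annotation, strand setting and barcode filter: not given in the sources used here. Of 34737 barcodes, 27220 had 500 or more genes and no more than 20% of UMIs from mitochondrial genes. From these 1918 poorer copies of barcodes shared between libraries (under 0.1 of the UMIs of the richer copy) and 1322 putative doublets, scored against simulated doublets, were removed, leaving 23980 cells. Cells were clustered with scanpy 1.11.5 (2000 variable genes, 30 principal components, 20 neighbours, Leiden resolution 0.8), and each of 21 clusters was named from at least 3 markers, except 1 of 254 cells. Counts were summed per class and library for the 11 classes with at least 30 cells in each library, and tested with edgeR 4.0.16 (quasi-likelihood, TMM scaling, its low-count filter) in R 4.3.3, with Benjamini-Hochberg adjustment over all genes of a class. The written plan spoke of 10 classes. The procedure was tested on simulated data. Intervals and floors, taken at 3 counts, cover counting error only.

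The 30 genes, the other lists and the alternatives were chosen with earlier results of these data known. Genes named in full were those passing in any class, the smallest p of each class, key genes in the class of their highest level, and tested genes without overlap of the diets and with a log2 difference of at least 1 in size; others were named after their values were seen. The labels do not say that a replicate number marks a shared animal or batch, so the numbers were not used as pairs. Some of the genes overlap another on the opposite strand (Echs1, Hadha, Acadvl, Acaa1a, Ucp2, Cpt1c), and their counts are uncertain if strand was not used. Sequences are from RefSeq on GRCm38.p6. Alternatives were DESeq2 1.42.0 size factors and its Wald test, no low-count filter, a replicate block, each library left out, stricter cell limits (1000 genes, 10% mitochondrial UMIs), doublets kept and, added after seeing the data, shared barcodes kept and a crossed replicate block.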

Additional observations from a re-analysis of the deposited data

How the results depend on the processing

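Over all genes, dropping the low-count filter raised the calls in gonadotrope-like cells to 1371, against 214, and in stem-like cells to 541, against 1. Keeping shared barcodes lowered those in gonadotrope-like cells to 70. Calls within the list are counted here as pairs of a gene and a class. Against 3 pairs called higher and 0 lower over the 11 classes, 13 were called higher when that filter was dropped and 1 when shared barcodes were kept. Leaving out 1 library gave 1 to 7 higher calls, with 1 when CTRL 2 was dropped, 3 when HFD 1 was, 6 when CTRL 1 was and 7 when HFD 2 was. Lower calls numbered 0 to 1, the 1 being Cpt1a in somatotrope-like cells when HFD 2 was dropped. DESeq2 size factors, its Wald test, stricter cell limits and doublets kept each gave 2, Etfb and Hadhb in gonadotrope-like cells. With the replicate block there were 3, of which Cpt1a in lactotrope-like cells was shared, beside Pdk4 (log2 2.78, adjusted p = 0.00373 by edgeR) and Echs1 (log2 0.49, adjusted p = 0.0345 by edgeR) in thyrotrope-like cells. The deviations of same-numbered libraries correlated by -0.16 to 0.063 in 8 of the classes, but by 0.12 in T or NK cell-like, 0.16 in mesenchymal-like and 0.31 in endothelial-like cells. Over all genes the block raised the calls in endothelial-like cells to 53, against 1 without it. Calls also rose to 97 against 10 in somatotrope-like, 101 against 28 in corticotrope-like and 93 against 17 in thyrotrope-like cells. In gonadotrope-like cells they fell to 57, against 214. The immediate-early genes of endothelial-like cells summed to 21762 and 39817 CPM in HFD 1 and HFD 2. In CTRL 1 and CTRL 2 they summed to 22706 and 38536 CPM. What a shared number stands for is not given in the labels. The crossed pairing, added after seeing the data, gave 6 within the list. Over all genes it gave 421 calls in somatotrope-like, 144 in corticotrope-like, 72 in thyrotrope-like and 646 in gonadotrope-like cells. The test of a difference between classes passed for 0 of 30 genes in each of its 8 alternatives by edgeR, with lowest adjusted p between 0.131 and 0.913 and 1 to 5 genes at an unadjusted p under 0.05.

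Changes of sign were checked only for the 31 tested pairs of a gene and a class named in full by the rule above. The differences among them that changed sign in some setting, none called in the main test, are given here. Each is shown as its range when 1 library was left out. They were -0.11 to 0.015 for Acadm, -0.089 to 0.91 for Pdk4 and -0.038 to 0.32 for Ppara in stem-like cells, and -0.30 to 1.13 for Acsl1 and -0.14 to 0.55 for Ppard (-0.041 when HFD 1 was dropped) in macrophage-like cells. They were -0.064 to 0.47 for Cpt1c in mesenchymal-like cells (-0.057 when CTRL 1 was dropped, -0.022 with doublets kept) and -0.046 to 0.12 for Hadha in corticotrope-like cells (-0.012 with doublets kept). The causes were not tested. Precision is limited by 2 libraries per diet, and in T or NK cell-like cells by at most 407097 UMIs in a library.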
